A study of Squalius alburnoides and Squalius pyrenaicus with 4 samples.

Results

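The miR-99/100 and miR-125 families were measured through 5 probes, those whose listed names include exactly dre-miR-99, dre-miR-100, dre-miR-125a, dre-miR-125b or dre-miR-125c (dre for zebrafish, *Danio rerio*), out of 218 probes with zebrafish names on a multi-species miRNA chip. miRNAs are short RNAs that lower the output of messenger RNAs carrying matching sites. Each probe was printed as 4 spots, and each of 4 genomic compositions of the *Squalius alburnoides* complex, Iberian cyprinid fish of hybrid origin, had 1 one-colour Cy3 array. PAA were triploid hybrids, PA diploid hybrids and AA diploid fish with the A genome alone, all adult *S. alburnoides* from the Almargem River, and PP were adults of the parental species *S. pyrenaicus* from Colares. All 4 pools held total RNA of liver, muscle and brain from about 3 wild-caught individuals per form, acclimated in captivity. AA are males and PAA mainly females, so genome, sex and river were partly tied together.

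With 1 array per form there was no replicate check of any difference between forms and no test was run. Errors given below are standard errors (SE) or standard deviations (SD) over the spots of a probe and cover neither animals, pools nor hybridizations. PAA and PA shared a slide and AA and PP another, while the upper area of a slide carried PAA or AA and the lower area PA or PP. A hybrid against a non-hybrid form therefore cannot be told apart from slide, nor PAA against PA or AA against PP from position on the slide. In RNA pooled from several organs, fewer cells of a type and less RNA per cell cannot be told apart either.

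miR-125 is the vertebrate counterpart of lin-4, the first miRNA found in the nematode *Caenorhabditis elegans*, where lin-4 and let-7 time larval development. In flies miR-100, let-7 and miR-125 are processed from a shared transcript, and in vertebrates copies of miR-99 or miR-100, let-7 and miR-125 lie in shared clusters. In mammals miR-125 and let-7 both repress Lin28, a protein that holds back let-7 maturation, and miR-99/100 represses the growth kinase mTOR. miR-99/100 also belongs, by sequence, to the wider miR-10 superfamily.

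A spot passed if it had been kept at image analysis and its foreground intensity was at least 2 times its local background, and a probe was detected with at least 2 passing spots. Zebrafish probes detected numbered 168 in PAA, 164 in PA, 154 in AA and 156 in PP. The 95th percentile of the spots labelled BLANK was 103 intensity units in PAA, 209 in PA, 203 in AA and 516 in PP, against BLANK medians of 36 to 49, and probes detected above that level numbered 167, 88, 66 and 31 in the same order of arrays. Liver, muscle and brain marker miRNAs were detected on every array, at 3 or 4 of 4 liver probes, 5 or 6 of 6 muscle probes and 6 or 7 of 7 brain probes. Fewer lay above the BLANK level. In PAA, PA, AA and PP these were 3, 2, 2 and 1 liver probes. For muscle they were 6, 1, 2 and 0, and for brain 6, 6, 5 and 4.

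Of the 5 members, 3 were detected in PAA, 4 in PA, 3 in AA and 4 in PP, and 3, 3, 2 and 1 of them lay above the BLANK level of their array. miR-100 and miR-125c were detected on all 4 arrays with all of their spots passing. miR-125a was detected on PAA, PA and AA, miR-99 on PP alone, and miR-125b on PA and PP. Some probes stand for many species at once: the miR-99 probe carries 12 names, that of miR-100 17, that of miR-125a 4 and that of miR-125b 25, while the miR-125c probe carries the zebrafish name only.

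**Figure D1:**
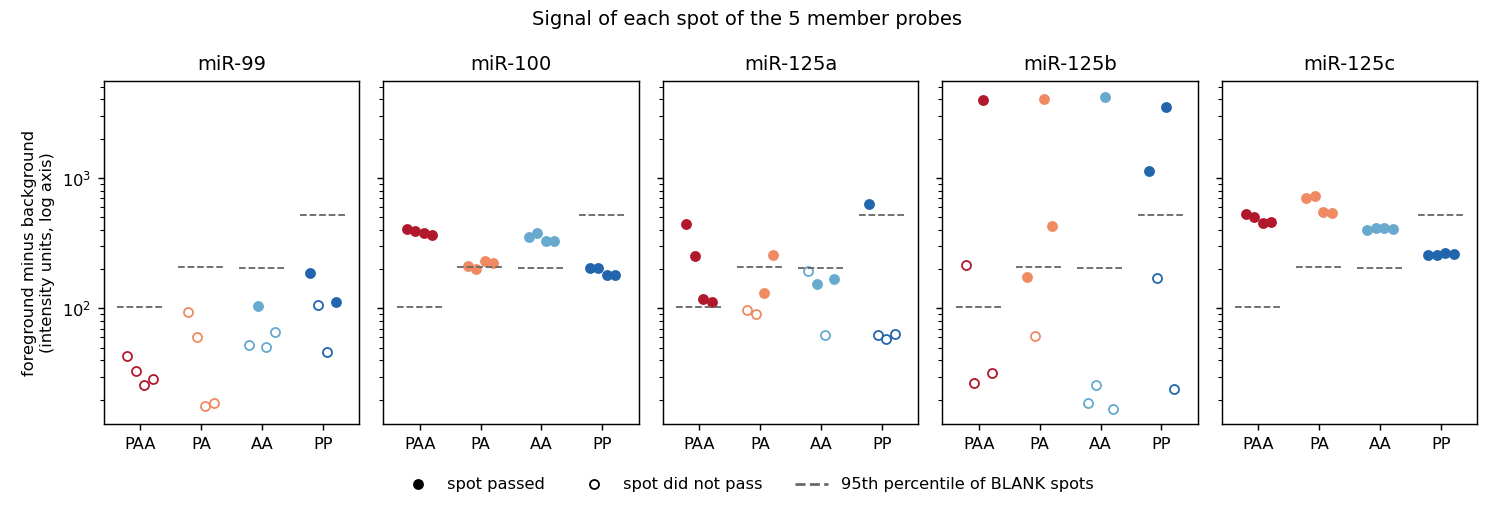
Foreground minus local background of each of the 4 spots (intensity units, log axis) for the 5 members on PAA, PA, AA and PP. Filled circles passed, open circles did not, and dashed lines are the 95th percentile of the BLANK spots of the array. The spots of miR-100 and miR-125c lie close together, and miR-125b has 1 spot between 3518 and 4191 on every array.

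miR-100 was one of the members measured on every array. Its 4 spots measured 403, 395, 376 and 362 intensity units on PAA and 213, 202, 231 and 224 on PA. On AA they measured 351, 378, 330 and 331, and on PP 205, 203, 179 and 180. Before any scaling the lowest spot of PAA and AA, 330, thus lay above the highest spot of PA and PP, 231. The geometric mean was 384 in PAA, 217 in PA, 347 in AA and 191 in PP, with spot SDs of 0.07, 0.08, 0.09 and 0.11 on the log2 scale. Its share of all zebrafish signal was 0.235% in PAA, 0.141% in PA, 0.227% in AA and 0.130% in PP. The value was 3.72 times the BLANK level on PAA, 1.04 times on PA and 1.71 times on AA, and it lay below that level on PP.

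After quantile normalization, which gives every array the same distribution of zebrafish values, the order of miR-100 was AA, PAA, PA, PP from high to low. The normalized intensity was 337 in PAA, 201 in PA, 437 in AA and 165 in PP, and no neighbours in that order had overlapping spots. With scaling to the total signal the order became PAA, AA, PA, PP, and there PAA could not be separated from AA (363 and 350 scaled units) nor PA from PP (218 and 200). The step between the upper and the lower pair was the part of the order that both scalings shared.

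miR-125c, the only member whose probe is specific to the zebrafish name, had 4 passing spots on every array as well. Its spots measured 525, 505, 450 and 459 on PAA and 696, 732, 543 and 535 on PA. On AA they measured 399, 414, 411 and 409, and on PP 258, 256, 267 and 262. In these unscaled signals every spot of PA exceeded every spot of PAA, these exceeded those of AA, and the spots of PP were the lowest. The geometric mean was 484 in PAA, 620 in PA, 408 in AA and 261 in PP. Spot SDs were 0.11, 0.24, 0.02 and 0.03, so AA and PP repeated closely and PA did not. The first pair of PA spots lay on a local background of 256 and 300, against 88 and 91 for the second pair. The values exceeded the BLANK level on PAA, PA and AA, and on PP the value was 0.505 times it.

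The order of miR-125c depended on the scaling except at its lower end. With scaling to the total signal PA came first at 622 units, then PAA at 458, AA at 411 and PP at 272, with no overlap between neighbours. With quantile normalization AA (514) and PA (502) overlapped, as did PA and PAA (410), and only PP (228) stood apart. PP was lowest under both.

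miR-125a was dim and its spots disagreed. On PAA they measured 444, 254, 119 and 111 and all passed, whereas on PA, at 98, 91, 132 and 257, only the last pair passed. On AA the spots measured 193, 155, 62 and 167, of which the second and the fourth passed and the first had been set aside. On PP they measured 634, 62, 58 and 64, of which only the first passed, so the probe was not detected there although that spot was brighter than any on the other arrays. Over the passing spots the geometric mean was 196 on PAA, 184 on PA and 161 on AA, and only PAA exceeded its BLANK level. No fold against PP is given, since the values of PA and AA rest on 2 passing spots each and the brightest spot of all was on PP. The 3 arrays with a value overlapped in every pair, at 0.23 ± 0.68 for PAA minus PA, 0.04 ± 0.48 for PAA minus AA and −0.19 ± 0.48 for PA minus AA (log2 ± SE).

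The miR-99 probe was close to background. Its spots measured 43, 33, 26 and 29 on PAA and 94, 60, 18 and 19 on PA, none passing. On AA they measured 52, 105, 51 and 66 with 1 passing, and on PP 188, 106, 46 and 112 with 2 passing. The PP value, a geometric mean of 145, was 0.281 times the BLANK level of that array. Before scaling the PP spots overlapped those of PA and AA but not those of PAA, and no fold is given.

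miR-125b, known from vertebrate brain, had spots too discordant for a level to be read. Its spots measured 214, 27, 3921 and 32 on PAA and 175, 61, 4055 and 426 on PA. On AA they measured 19, 26, 4191 and 17, and on PP 1123, 170, 3518 and 24. On every array the third spot was the brightest, by 18.3 times the next on PAA, 9.52 times on PA, 161 times on AA and 3.13 times on PP, and it spanned only 1.19-fold over the 4 arrays. Apart from it, 0 spots passed in PAA, 2 in PA, 0 in AA and 1 in PP. Detection on PA would thus hold without the third spot, while detection on PP needed it. PA minus PP was −2.01 ± 1.58 with overlapping spots. No fold against PAA or AA is given, since the same bright spot was present there. Of the 218 zebrafish probes, 5 had the same spot brightest on all 4 arrays by at least 2 times the next: miR-125b, miR-27b, miR-130b, miR-430a and miR-727.

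Differences between forms were then taken for each pair of arrays, on quantile-normalized values of probes detected on both. In PAA against PA, the comparison of triploid with diploid hybrids on a shared slide, miR-100 was 0.74 ± 0.06 higher on PAA (1.67-fold), the 8th highest of 147 probes, and miR-125c was −0.29 ± 0.13 with overlapping spots. Of 3 members measured, 1 had spots that did not overlap, against 31.3% of all probes, and 0 lay beyond 2-fold, against 3.4%. The median over the members was 0.23, and over all probes 0.02. That member median is the value of dim miR-125a (0.23 ± 0.68, overlapping spots), so it is not read as a shift of the members.

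In PAA against AA, both in the upper area of a slide, miR-100 was lower on PAA by 0.38 ± 0.06 and miR-125c by 0.33 ± 0.05 without overlap, at a median of −0.33 over 3 members and 0.12 over all 140 probes. Spots did not overlap for 2 of the 3 members, as for 49.3% of all probes, and 0 lay beyond 2-fold, against 12.1%. The sign of both depended on the scaling: with scaling to the total signal the differences were 0.05 for miR-100 and 0.15 for miR-125c, and the median of all probes moved to 0.20. Relative to the median of all probes miR-100 was lower on PAA in all 14 settings run, by 0.11 to 0.66, and miR-125c in all but the authors' value table, where it was 0.01. These settings are not separate checks. Median, total-signal, Homo and no scaling shift a whole array by a constant, which the subtraction of the median cancels. They give −0.15 for miR-100 and −0.05 for miR-125c alike, the latter no larger than its SE of 0.05.

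In PA against AA, miR-100 was 2.17-fold higher on AA (−1.12 ± 0.06), the 5th lowest of 133 probes, while miR-125c was −0.03 ± 0.12. The median over 3 members was −0.19, again the value of miR-125a (± 0.48, overlapping spots), against 0.01 over all probes. Spots did not overlap for 1 of the 3, against 47.4% of all probes, and 1 lay beyond 2-fold, against 9.77%. That member, miR-100, fell short of 2-fold with scaling to the total signal (−0.68), though lower on PA in all 14 settings (−1.42 to −0.68), while miR-125c turned to 0.60 with that scaling.

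Against PP, miR-100 and miR-125c were higher on each of the other arrays. In PAA against PP, miR-100 was higher by 1.03 ± 0.06 (2.04-fold) and miR-125c by 0.85 ± 0.06 (1.80-fold). In PA against PP, miR-100 was higher by 0.29 ± 0.07 and miR-125c by 1.14 ± 0.12 (2.20-fold), the 15th highest of 131 probes. In AA against PP, miR-100 was higher by 1.40 ± 0.07 (2.65-fold), the 8th highest of 130 probes, and miR-125c by 1.17 ± 0.02 (2.25-fold), the 12th highest. None of these spots overlapped under quantile normalization, as for 50.4% of all probes in PAA against PP, 38.9% in PA against PP and 47.7% in AA against PP. Beyond 2-fold lay 1 of 2 members in PAA against PP, 2 of 3 in PA against PP and 2 of 2 in AA against PP. The shares over all probes were 29.9%, 25.2% and 24.6%. In PA against PP these members were miR-125c, higher on PA, and miR-125b, lower on PA at −2.01 ± 1.58 with overlapping spots. No level could be read for miR-125b, and without the filter on dim spots its difference was −0.27. The 3 comparisons share the PP array, on which the miR-100 and miR-125c probes were under the BLANK level. For miR-100 and miR-125c the signs of all 6 differences held in all 14 settings. With scaling to the total signal fewer lay beyond 2-fold: PAA minus PP was 0.86 for miR-100, and AA minus PP was 0.81 for miR-100 and 0.59 for miR-125c. Relative to the median of all probes, the range of settings included 0 for miR-100 in PA against PP (−0.15 to 0.30) and for miR-125c in PAA against PP (−0.13 to 0.96).

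**Figure D2:**
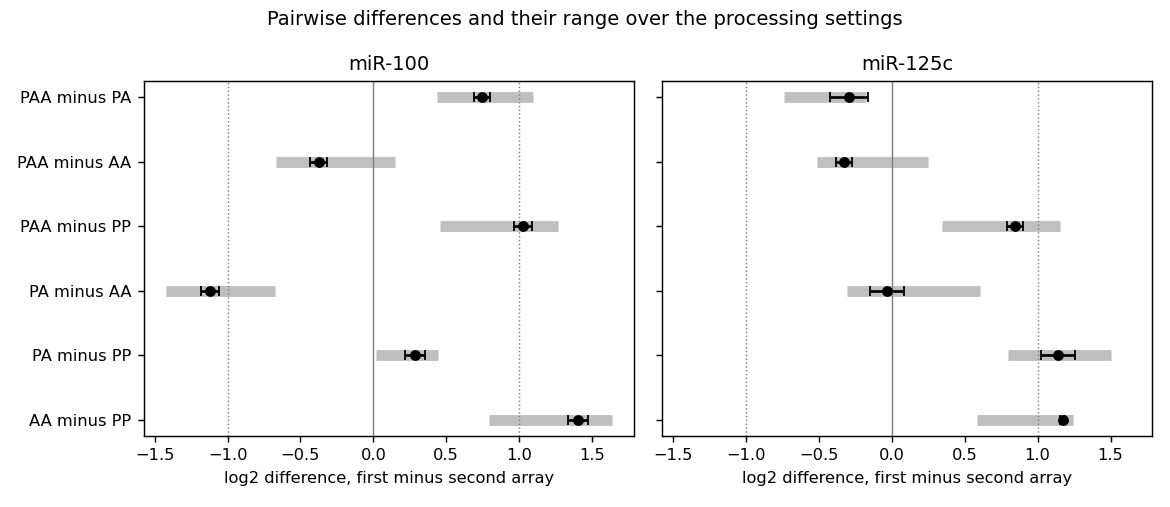
Log2 difference, first minus second array, of miR-100 and miR-125c in the 6 pairs. Points are quantile-normalized differences with SE over spots, grey bars span all settings, and dotted lines mark 2-fold. The bars cross 0 for both members in PAA minus AA and for miR-125c in PA minus AA.

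The split of miR-100 along slide position was set beside other probes, with total-signal scaling. Every spot of PAA and AA exceeded every spot of PA and PP for 5 of the 114 zebrafish probes detected on all arrays, a share of 4.39%: miR-100, miR-21, miR-219, miR-455 and miR-461. Another 7 probes (6.14%) showed the opposite order, and among probes named for invertebrate miRNAs only, 2 of 90 (2.22%) showed the same one. Both upper arrays are set against both lower ones here, and the part of slide position in it was not tested. For miR-125c every spot of PAA and PA exceeded every spot of AA and PP, as for 20 of the 114 zebrafish probes (17.5%) and 13 of the 90 invertebrate-only probes (14.4%). Only 3 zebrafish probes (2.63%) and 0 invertebrate-only probes showed the opposite order. With quantile normalization miR-125c lost this split, since AA exceeded PA.

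The dosage question of the study was whether hybrid levels follow from those of AA and PP. The study put it to its small RNA sequencing, judging that these arrays might be too insensitive and the zebrafish chip less faithful. Here it was put to the array signal. On signal scaled to the total, the level expected in PA was halfway between AA and PP, and that in PAA weighted AA 2 times as much as PP. On PAA, miR-100 measured 363 units against 300 expected (0.28 ± 0.05 on the log2 scale) and miR-125c 458 against 365 (0.33 ± 0.05). miR-125c lay above AA and PP, while miR-100 lay above PP with spots that overlapped those of AA. The median over all 124 probes was 0.19, with 72 higher and 52 lower. With quantile normalization these differences were −0.04 and −0.03, so no direction is given for PAA.

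On PA the members went opposite ways. miR-100 measured 218 units against 275 expected (−0.33 ± 0.06), below AA and with spots that overlapped those of PP. miR-125c measured 622 against 342 (0.86 ± 0.12), above AA and PP and the 11th highest of 116 probes. All probes had a median of 0.14, with 73 higher and 43 lower. The signs on PA held in all 11 settings in which additivity was computed, from −0.66 to −0.14 for miR-100 and from 0.44 to 0.94 for miR-125c. Additivity was not computed for position-matched spots or for each print block alone. No setting separates form from slide: the expected levels came from AA and PP, both on the other slide from the hybrids. On PP both members lay under the BLANK level, at 0.37 times it for miR-100 and 0.51 times for miR-125c. miR-100 on PA was 1.04 times its level.

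**Figure D3:**
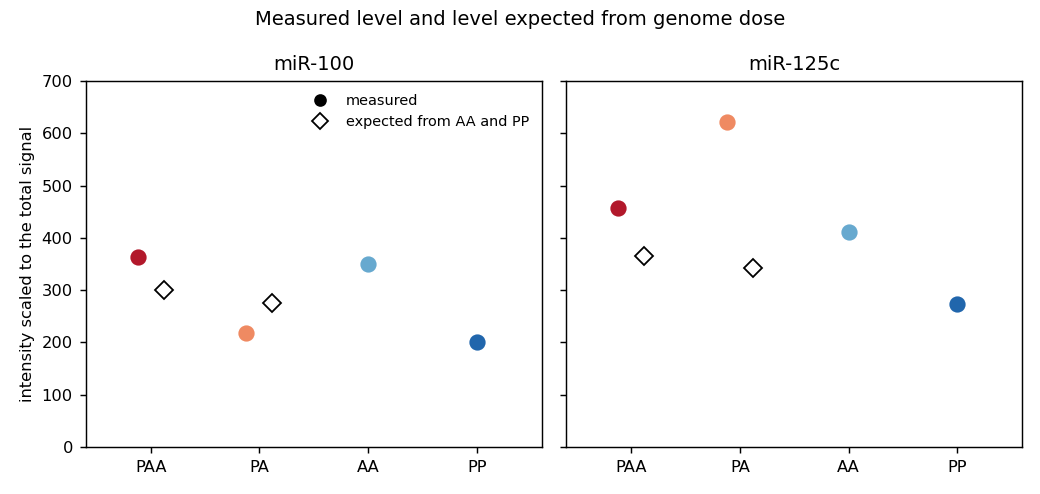
Measured intensity scaled to the total signal (circles) of miR-100 and miR-125c on PAA, PA, AA and PP, with the level expected from AA and PP (diamonds) for the hybrid forms. miR-125c on PA, at 622 units, lies above its expected 342, and miR-100 on PA, at 218, lies below 275.

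The zebrafish probes with profiles nearest to miR-100 over the 4 forms were miR-455, at a root mean square distance of 0.17 on the log2 scale, miR-21 at 0.23 and miR-219, known from myelinating cells of brain, at 0.26. The median distance over the 114 probes was 0.58, and miR-125c came 22nd at 0.44. Nearest to miR-125c were miR-24 at 0.17, the epithelial miR-200a at 0.19 and miR-222 at 0.20, against a median of 0.50, and miR-100 came 37th. These distances rest on 4 arrays and serve as a description.

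The let-7 probes, partners of these miRNAs in shared clusters, numbered 10 on the chip, of which 7 were detected in PAA, 6 in PA, 6 in AA and 9 in PP. In PAA against PA 5 of 6 measured let-7 probes were higher and 1 lower, with a median of 0.28. Among the higher ones, let-7a, let-7b and let-7e had overlapping spots. let-7g and let-7j did not overlap but were under the BLANK level on PA. In PAA against AA 4 were higher and 2 lower (median 0.28), where 88 of all 140 probes were higher and 51 lower. miR-100 and miR-125c were lower there with the same quantile normalization. In AA against PP 3 let-7 probes were higher and 2 lower (median 0.12), where miR-100 and miR-125c were both over 2-fold higher. In PAA against PP 2 let-7 probes were higher and 4 lower (median −0.51), and in PA against PP 1 was higher and 4 lower (median −0.84). By these medians only, the direction was opposite to miR-100 and miR-125c. let-7b, under the BLANK level on PP, went with those members without overlap, at 1.57 ± 0.31 and 1.13 ± 0.32. Of the lower probes in PA against PP, let-7c and let-7g did not overlap. let-7a (−0.06 ± 0.74) and let-7j (−0.84 ± 0.76), which gives the median, did overlap. In PA against AA 1 was higher and 4 lower (median −0.24). Over all probes 75 were higher and 71 lower in PAA against PA, and 80 and 56 in PAA against PP. The counts were 67 and 65 in PA against AA, 71 and 59 in PA against PP, and 67 and 62 in AA against PP. Only 3 let-7 probes exceeded the BLANK level on PP, let-7c, let-7f and let-7i.

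Single let-7 probes above the BLANK level on both arrays did not share 1 pattern. let-7c measured 206 units in PAA, 243 in PA, 8143 in AA and 5626 in PP, so it was bright on the second slide and dim on the first. let-7b measured 673 on PAA, 495 on PA and 412 on AA, and let-7e 2041, 1822 and 1256 on the same arrays. After quantile normalization the spots of let-7b overlapped in all 3 pairs of these arrays, while let-7e was higher on PAA (0.81 ± 0.20) and on PA (0.66 ± 0.17) than on AA without overlap. let-7f was above the level on PAA, AA and PP, at 490, 256 and 520 units.

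Of the miR-10 relatives, 5 of 6 listed names were on the chip. All 5 exceeded the BLANK level on PAA, against 1 on PA, 0 on AA and 1 on PP. That level differed between arrays. Of all detected zebrafish probes 167 of 168 exceeded it on PAA, 88 of 164 on PA, 66 of 154 on AA and 31 of 156 on PP. In AA against PP 1 of 4 was higher and 3 lower, with a median of −1.73, and in PAA against PP likewise 1 and 3, with a median of −1.48. miR-10d measured 298 units on PAA, 380 on PA and 576 on PP, each above the BLANK level, and its difference for PAA minus PP was −1.27 ± 0.21.

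Probes for the same miRNAs of other species, which carry no zebrafish name, were set beside the members. The probe for nematode lin-4 was detected with all spots on every array, between 2439 and 2660 units in PAA, 2286 and 2527 in PA, 1246 and 1508 in AA and 1194 and 1425 in PP. The hybrid arrays thus lay wholly above the others. Scaled to the total signal, PAA minus AA was 0.82 ± 0.07 (1.77-fold) and PAA minus PP 0.78 ± 0.07, while PAA minus PA was 0.00 ± 0.04 and AA minus PP −0.04 ± 0.09. What the lin-4 probe bound in fish RNA was not tested, and the split is again that of the slides.

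The probe for mammalian miR-125a was among those near the top of the scanner range, with a highest foreground of 60952 on PAA. Its spots lay between 57514 and 60860 units in PAA, 29900 and 38687 in PA, 44299 and 54751 in AA and 37088 and 42210 in PP. After scaling to the total signal PAA was 0.73 ± 0.08 higher than PA, PA was lower than AA by 0.59 ± 0.10, AA was 0.26 ± 0.08 higher than PP and PAA 0.40 ± 0.05 higher than PP, all without overlap. On that scale PAA and AA overlapped (0.14 ± 0.07), which their unscaled spots did not, and PA and PP overlapped as well (−0.33 ± 0.09). The upper arrays were thus the brighter ones here, as for miR-100. The zebrafish miR-125a probe averaged only 196 units on PAA, 184 on PA and 161 on AA, and was not detected on PP. What the mammalian probe bound in fish RNA was not tested, so its split is not read as that of a member.

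The probe for mammalian miR-99b passed on all arrays at 124 units in PAA, 175 in PA, 117 in AA and 178 in PP, with overlap in all 6 pairs and only PAA above its BLANK level. The probe for fly miR-100 was detected on PP alone, with 2 passing spots at 238 units, under the BLANK level of 516 there. That for mouse miR-99a was detected on no array.

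**Figure D4:**
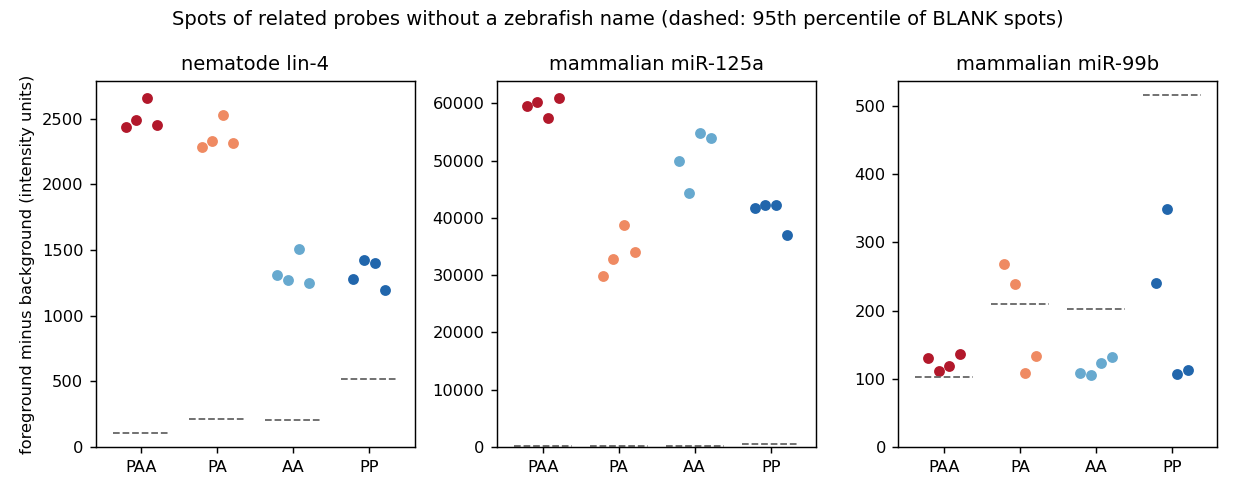
Signal of each spot (foreground minus background, intensity units, linear axes that differ between panels) for the probes of nematode lin-4, mammalian miR-125a and mammalian miR-99b on PAA, PA, AA and PP. Dashed lines are the 95th percentile of the BLANK spots. The lin-4 spots run from 2286 to 2660 in PAA and PA and from 1194 to 1508 in AA and PP.

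Marker lists of other cell types moved between the arrays as well, and their part in the members' differences was not tested. Summed marker signal was 14713 units in PAA, 11050 in PA, 10573 in AA and 9526 in PP for brain, and 2153, 1471, 1140 and 992 in the same order for muscle. For liver it was 27529, 25407, 21708 and 22745. These are unscaled sums, in which a few bright probes weigh most. On quantile-normalized values brain probes were 2 higher and 3 lower in PA against AA (median −0.17), 4 higher and 2 lower in PAA against PA (0.32), and 3 higher and 3 lower in AA against PP (0.18), so by their medians they lay on the same side as miR-100 in these pairs. In PAA against PP brain probes were 5 higher and 1 lower (0.31), again on the side of miR-100. Brain probes lay on the other side in PAA against AA, with 4 higher and 1 lower (0.68), and in PA against PP, with 3 higher and 3 lower (−0.04). Muscle probes were 3 higher and 2 lower in PA against PP (0.37) and 3 higher and 1 lower in AA against PP (0.26). In PAA against PP they were 3 higher and 2 lower (0.32), and in PAA against PA 2 and 3 (−0.07). In PAA against AA they were 3 higher and 2 lower (0.16), and in PA against AA 3 and 1 (0.23). In these last pairs miR-100 and miR-125c were negative, though miR-125c in PA against AA was only −0.03 and was positive under several other settings. Liver medians ran from −0.42 in PA against AA to 0 in PAA against PA, PAA against PP and AA against PP. In each of the pairs at 0, 3 liver probes were measured, 1 higher and 1 lower. The 0 is thus that of 1 probe with equal normalized values. Quantile normalization sets values by rank, so such a 0 is not a measured equality. Of the other lists, 1 of 2 red blood cell probes, 3 or 4 of 5 leukocyte probes, 1 or 2 of 2 endothelial probes and 4 or 5 of 6 smooth muscle and connective tissue probes were detected on each array. The red blood cell marker detected, miR-451, measured 366 units in PAA, 410 in PA, 164 in AA and 118 in PP, the same order before scaling as miR-125c, and exceeded the BLANK level on PAA and PA only. Its quantile-normalized difference was 1.48 for PAA minus PP, 1.63 for PA minus PP, 0.77 for AA minus PP and 0.86 for PA minus AA. For PAA minus AA it was 0.71 and for PAA minus PA −0.15. miR-125c was −0.33 in PAA minus AA and −0.03 in PA minus AA, so the shared order was lost with that normalization. Both were among the 17.5% of zebrafish probes with every total-scaled spot of PAA and PA above AA and PP, against 14.4% of invertebrate-only probes. Endothelial signal summed to 518 in PAA and 696 in PA over 2 detected probes, and to 165 in AA and 335 in PP over 1.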

How the data were processed

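Per the labels, total RNA was labelled with Cy3, and per the study's methods it was hybridized to a multi-species miRNA chip, scanned and quantified in QuantArray. The authors' deposited scanner files give foreground and local background intensity for 5040 spots per array, neither subtracted nor normalized, with a column of 1 or 0 per spot. The sources used here do not state what it means. Reading 1 as kept and 0 as set aside, 7.68% of zebrafish spots in PAA, 19.3% in PA, 11.1% in AA and 17.1% in PP were left out. The authors' value table (intensity, 241 probes) equals the geometric mean foreground of kept spots times a factor per array, without the background subtraction that the methods describe, for 238 to 241 probes within 0.1%, and served as an alternative.

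Background was subtracted per spot, and the mean log2 signal of passing spots was quantile-normalized over detected zebrafish probes (limma 3.58.1 for normexp, R 4.3.3; Python 3.11.15). Additivity and separation used total-signal scaling. Slides were read from image names in the file headers. Alternatives changed the scaling, the background correction, the filter on dim spots, the spots used and their summary. The number of arrays limits the precision, and the code was tested on simulated data. The 5 members are all named, with the 3 nearest profiles to each member detected everywhere and list probes above the BLANK level on both arrays of a pair. Some list probes below that level are named too. Members and lists were chosen with earlier results of these data known. Probe sequences were not used here.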

Additional observations from a re-analysis of the deposited data

Results flagged for a closer look

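Outside the zebrafish probes, the probes for nematode lin-4 and mammalian miR-125a gave signal above the BLANK level on all 4 arrays, in data the comparisons of the members do not use. Those for mammalian miR-99b, fly miR-100 and mouse miR-99a did not. What the bright probes bound in fish RNA was not tested. The nematode lin-4 probe averaged 2509 intensity units in PAA, 2363 in PA, 1330 in AA and 1322 in PP. The mammalian miR-125a probe averaged 59515 in PAA, 33726 in PA, 50585 in AA and 40734 in PP.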

How the results depend on the processing

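With 13 alternatives, of which 3 (position-matched spots, and each print block alone) were chosen after seeing the data, 153 values of single members moved by less than the spread of their spots, 77 moved further and 13 reversed. No paired analysis was possible because each form had 1 array and no replicate number.

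These reversals, counted for PAA and PA from additivity and for differences with non-overlapping spots, lay in PAA minus AA and in PAA against additivity. Of the differences with overlapping spots, miR-125c in PA minus AA, −0.033 as reported, also changed sign. It became 0.60 with total-signal scaling, 0.60 with no scaling, 0.50 with Homo scaling and 0.11 with median scaling. The filter at 3 times background gave 0.20, spots set aside included 0.39 and the median of spots 0.0079. The authors' value table gave 0.34 and the first print block alone 0.18. The 3 differences of miR-125a changed sign under some settings as well. In PAA minus AA, miR-100 became 0.053 with total-signal scaling and 0.15 with no scaling. miR-125c became 0.15 with total-signal scaling, 0.24 with no scaling, 0.0027 with a filter at 3 times background, 0.034 with spots set aside included and 0.0033 in the authors' value table. Against additivity, PAA became −0.041 for miR-100 and −0.030 for miR-125c with quantile normalization, −0.18 and −0.12 with median scaling, and −0.12 and −0.068 with scaling on the control spots labelled Homo. The cause was not tested.

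Of the medians over members, 30 were within the spread, 26 moved and 4 reversed. Median scaling gave −0.054 for PAA minus PA, 0.73 for PAA minus PP and 1.18 for AA minus PP. Total-signal scaling gave 0.15 for PAA minus AA, 0.80 for PAA minus PP, 0.19 for PA minus AA and 0.70 for AA minus PP. Homo scaling gave −0.29 for PAA minus PA, 0.40 for PAA minus PP, 0.10 for PA minus AA, 0.019 for PA minus PP and 0.69 for AA minus PP. No scaling gave 0.24 for PAA minus AA, 0.20 for PA minus AA and 0.75 for AA minus PP. Normexp gave 0.71 for PAA minus PP and 1.01 for AA minus PP. No filter on dim spots gave −0.51 for PAA minus AA, 0.59 for PAA minus PP and 0.54 for AA minus PP, and the filter at 3 times background −0.028 for PAA minus AA and 0.86 for AA minus PP. Including spots set aside gave 0.013 for PAA minus AA, 1.21 for PAA minus PP and −0.43 for PA minus AA. The value table gave −0.33 for PAA minus PA, 0.0033 for PAA minus AA, 0.62 for PAA minus PP, 0.072 for PA minus AA and 0.25 for AA minus PP. Each median rests on 2 or 3 members in the reported setting, so a member entering or leaving moves it. In PAA minus PA and PA minus AA the reported median is the value of miR-125a. The spread set for the PAA minus PA median, 0.26, was below the 1.17 of miR-125a itself. The BLANK level of PP, 516 units, limits every difference against PP.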
